A study of Homo sapiens with 4 samples.

Results

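The proteasome subunit genes are the genes that encode the rings, the regulatory particle and the activators of the proteasome, the protease of the cytoplasm and nucleus. They were taken as every non-control gene name of the array that starts with PSM, goes on with a letter from A to G and ends in a number, with 1 matching symbol left out. This gave 42 of 30975 gene names, read by 60 of 41000 probes, and they were 8 PSMA, 9 PSMB, 6 PSMC, 14 PSMD, 4 PSME and 1 PSMF gene. No gene was listed under a PSMG symbol. RNA came from FaDu, a hypopharyngeal squamous cell carcinoma (HSCC) line, and HSC3, a squamous cell carcinoma line from the tongue, 72 h after transfection with miR-489, miR-504 or a control miRNA. Each of the 4 Agilent oligo-microarrays carried 1 miRNA transfectant in Cy5 and the control miRNA transfectant of the same line in Cy3. There was 1 array for each line and miRNA, no dye swap, and 1 slide with 1 scan, so each ratio keeps whatever dye bias its probe has. Nothing in the labels says that cultures were repeated, or whether both arrays of a line carried the same control RNA.

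The proteasome degrades proteins that carry chains of ubiquitin. Its core particle is a stack of rings built from alpha subunits (PSMA), which gate the entry, and beta subunits (PSMB), some of which cut the peptide chain. The regulatory particle binds the ubiquitin chain, removes it and unfolds the substrate, with ATPases (PSMC) and scaffold, receptor and lid subunits (PSMD). Activators (PSME) open the gate without ATP, and PSMF1 encodes a protein known as an inhibitor. Cells short of proteasome activity raise the subunit genes together through the transcription factor NFE2L1, and interferon gamma induces an alternative set of catalytic subunits.

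The mature sequences of the transfected miRNAs are shown because they differ in the seed, the bases that pair with target mRNAs. Seeds, bases 2 to 8 from the 5′ end, are in capitals. The sequences and the GRCh38.p14 positions are those of RefSeq, and all lie on the minus strand. The labels name no arm, so both RefSeq arms of miR-504 are given and the arm transfected is not known.
hsa-miR-489-3p (chr7:93483947-93483968): gUGACAUCacauauacggcagc
hsa-miR-504-5p (chrX:138667760-138667781): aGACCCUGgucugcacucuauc
hsa-miR-504-3p (chrX:138667724-138667744): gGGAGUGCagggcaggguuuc
No seed was shared between them. Target sites in the subunit transcripts were not analysed here.

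Signals were well above background in both channels on all 4 arrays for 41 of the 42 genes. The exception was PSMA8, which encodes a testis form of the PSMA7 subunit, and its signal was not well above background in either channel on any array. The other 41 genes were bright, with background-subtracted Cy3 intensities from 573 to 46257 and a median of 7280 on the FaDu miR-489 array. Log2 ratios of Cy5 over Cy3 were centred on each array, so 0 is the median of the probes measured in both channels. Ratios moved with brightness on every array, since the median log2 ratio was 0.13 to 0.19 in the brightest quartile of spots and −0.42 to −0.30 in the dimmest. The part of this trend in the subunit ratios was not tested, and values after loess, which removes it, stand beside the medians. Of the squamous epithelial markers, 7 of 8 were found and all 7 were well above background in Cy3 on all arrays, with a summed Cy3 intensity of 45678 to 61005 in FaDu and 80774 to 83792 in HSC3, and the part of this in differences between the lines was not tested. None (0) of 5 fibroblast and 0 of 3 endothelial markers reached that level on all arrays, and of 5 leukocyte markers only CD14 did, at a Cy3 intensity of 43 to 76.

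The subunit genes did not move as 1 block after transfection. In bulk RNA, fewer cells with a transcript and less of it per cell cannot be told apart. The members' median log2 ratio was 0.20 on the FaDu miR-489 array, 0.03 on the FaDu miR-504 array, 0.21 on the HSC3 miR-489 array and 0.13 on the HSC3 miR-504 array. Over the 15611 genes measured in both channels on all arrays the medians were 0.03, 0.03, 0.03 and 0.02. On the FaDu miR-489 array 18 subunit genes lay below 0 and 23 above it, and on the HSC3 miR-504 array 14 and 27. After loess the medians of the subunit genes became −0.07, −0.21, 0.01 and −0.04, on the other side of 0 for 3 of the 4 arrays. The HSC3 miR-489 median was negative in the deposited ratios (−0.02). The side of 0 on which the family lay thus depended on the scaling for every array. Few members changed by 2-fold. At least 2-fold lower were PSMD1 on the FaDu miR-489 array and PSMA1 on the FaDu miR-504 array, 1 gene each, where 8.77% and 5.96% of all genes were, and 0 members on either HSC3 array, where 8.13% (miR-489) and 5.09% (miR-504) of all genes were. At least 2-fold higher was PSME3 on every array, joined by PSMB3 on the HSC3 miR-489 array. These are 1, 1, 2 and 1 of 41 members, beside 2.89% and 2.36% of all genes in FaDu and 2.7% and 1.98% in HSC3, miR-489 first. With the mean of a gene's probes in place of the brightest, the counts became 0, 0, 1 and 0.

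**Figure D1:**
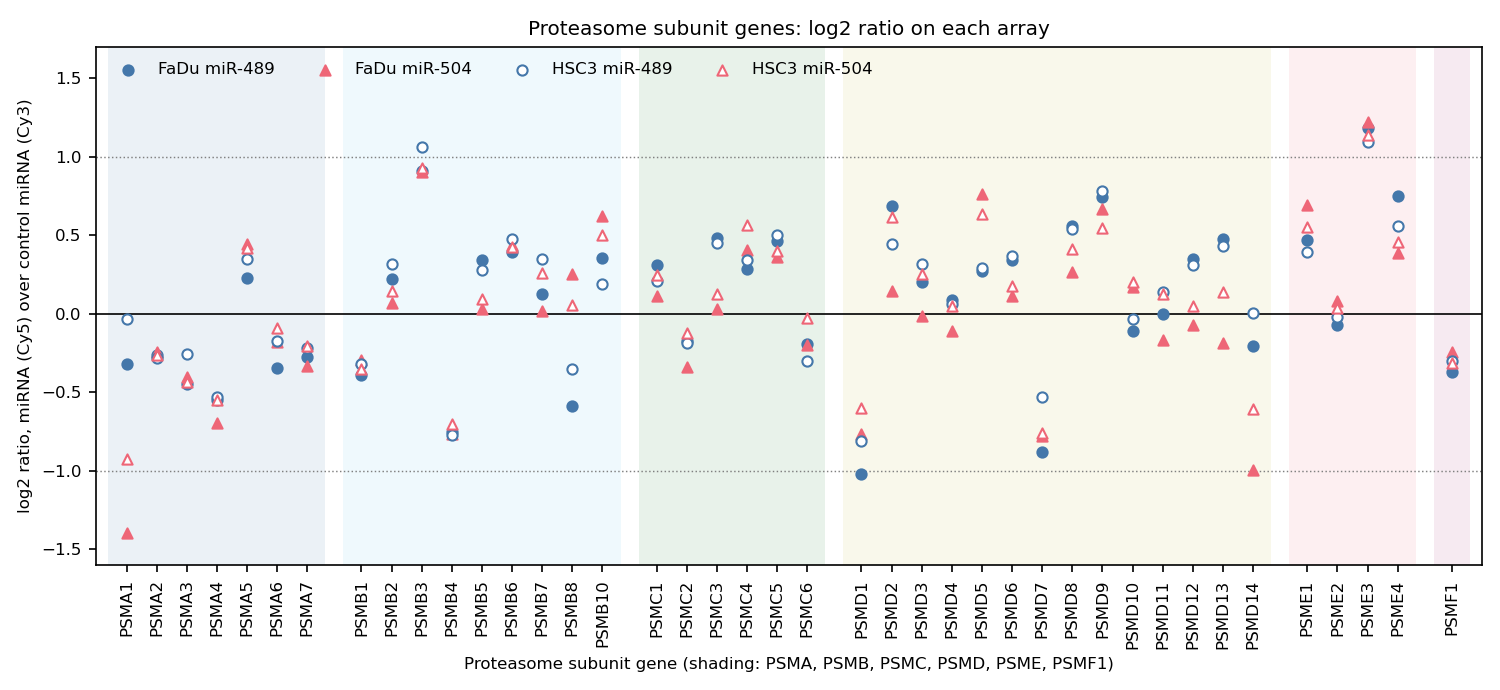
Log2 ratio of the miRNA transfectant (Cy5) over the control miRNA transfectant (Cy3) for the 41 measured subunit genes, on the y axis, 1 point per array (circles miR-489, triangles miR-504; filled FaDu, open HSC3), with dotted lines at 2-fold. PSME3 lies above 1 on all 4 arrays, 6 of 7 PSMA genes lie below 0 on all 4 (4 to 6 under other scalings), and the miR-504 triangles of PSMA1 and PSMD14 lie apart from their miR-489 circles; the side of 0 of genes near the line changes with the scaling.

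With the cell lines as replicates of a miRNA, limma called 10 members lower and 20 higher than control after miR-489, and 11 lower and 12 higher after miR-504 (Benjamini-Hochberg over all probes, 0.05). Of all genes 27.8% were lower and 30.1% higher after miR-489, and 24.3% lower and 26.7% higher after miR-504. The members' shares are close to these but for the 20 of 41 higher after miR-489, a count that fell to 9 with loess. Without the FaDu miR-489 array 4 members were lower and 8 higher after miR-489, and without the HSC3 miR-489 array 9 were higher. Without the FaDu miR-504 array 2 were lower and 3 higher after miR-504, and leaving out the HSC3 miR-504 array gave 6 and 6. Each of these fits leaves 1 array for that miRNA, which is assumed to vary as the arrays of the other miRNA do, so fewer calls follow in part from the design. The split of lower and higher calls moved with the scaling. It became 15 lower and 9 higher for each miRNA after loess. Without background subtraction it became 5 and 23 (miR-489) or 7 and 21 (miR-504). Shares of all genes are given only for the scaling of the report with all arrays. The recounts therefore do not show whether the members moved apart from all genes. Every member called lower kept a negative mean under all 7 other scalings, and 5 of 10 (miR-489) and 7 of 11 (miR-504) were called under each of them. Of the members called higher, all 12 after miR-504 and 17 of 20 after miR-489 kept a positive mean, the exceptions being PSMA5, PSMB5 and PSMC1. A called value against control holds any dye effect of the probe as well as the effect of the miRNA, and the 2 cannot be told apart here. In what follows, fell and rose describe the ratio of Cy5 over Cy3, and the p-values measure its spread between arrays only.

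Among the alpha subunits, which form the outer rings of the core and gate its entry, 6 of 7 measured genes had ratios below 0 on every array, as did 4 to 6 of 7 under the other scalings. The median over the 7 was −0.32 and −0.34 in FaDu after miR-489 and miR-504 and −0.22 and −0.26 in HSC3, an order kept in the values below. With loess it was −0.55, −0.54, −0.47 and −0.44. PSMA4 had log2 ratios of −0.55, −0.69, −0.53 and −0.55 on the 4 arrays, and it fell after both miRNAs (miR-489 −0.54 ± 0.081 SE, adjusted p = 0.00439; miR-504 −0.62 ± 0.081, adjusted p = 0.00387). PSMA5 was the gene on the other side, with 0.23, 0.44, 0.35 and 0.42, and was called higher after both miRNAs, but its miR-489 mean changed sign under 1 scaling (−0.0013). PSMA1 was the lowest of the ring by its mean over the arrays (−0.67), and its values, unlike those of PSMA4, came apart by miRNA.

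Within the beta rings the genes ranged widely, from PSMB4 to PSMB3. PSMB4, a structural beta subunit, gave −0.75, −0.77, −0.77 and −0.71 on the 4 arrays in the same order and fell after miR-489 (−0.76 ± 0.076 SE, limma adjusted p = 0.00159) and after miR-504 (−0.74 ± 0.076, adjusted p = 0.00234). PSMB3, also structural, gave 0.91, 0.90, 1.06 and 0.93 and rose after both (0.99 ± 0.082, adjusted p = 0.00117, and 0.91 ± 0.082, adjusted p = 0.00178). The 4 values of each gene sat close together, and the 2 genes did not overlap on any array. Any constant dye effect of the probes is part of these values, and its share was not tested. Of the constitutive catalytic subunits, PSMB6, the caspase-like one, gave 0.39, 0.44, 0.48 and 0.42, rose after both miRNAs, and stayed above 0 on every array under each scaling. PSMB5, the chymotrypsin-like subunit, gave 0.34, 0.03, 0.28 and 0.10, and PSMB7, the trypsin-like one, 0.12, 0.02, 0.35 and 0.26, but with loess neither (0 of 2) stayed above 0 on every array. Over the 9 PSMB genes the medians were 0.22, 0.07, 0.28 and 0.14, and 0.04, −0.02, 0.06 and −0.04 with loess.

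Of the 6 ATPases of the regulatory particle 4 lay above 0 and 2 below it on every array, with medians of 0.30, 0.07, 0.27 and 0.19. With loess 2 lay above and 3 below on every array, and the medians were 0.04, −0.14, 0.07 and −0.03. PSMC5 was the highest by its mean, at 0.46, 0.36, 0.50 and 0.40, and rose after miR-489 (0.48 ± 0.076 SE, limma adjusted p = 0.00502) and miR-504 (0.38 ± 0.076, adjusted p = 0.0123). PSMC2 was the lowest, at −0.17, −0.34, −0.19 and −0.12, and neither miRNA passed the test (adjusted p = 0.139 and 0.0819). PSMC3 gave 0.48, 0.03, 0.45 and 0.12, a higher ratio after miR-489 in each line. Its difference between the miRNAs did not pass (limma adjusted p = 0.174, and 0.178 with the line as a block).

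The 14 PSMD genes had medians of 0.24, −0.04, 0.30 and 0.16 on the 4 arrays, and 0.08, −0.15, 0.14 and 0.03 with loess. The lowest was PSMD1, a scaffold of the base, at −1.02, −0.77, −0.81 and −0.60 by its brighter probe, which fell after miR-489 (−0.92 ± 0.095 SE, limma adjusted p = 0.00174) and miR-504 (−0.68 ± 0.095, adjusted p = 0.00453). A second PSMD1 probe for the same transcript gave 0.23, 0.42, 0.39 and 0.48, on the other side of 0 on every array, so the direction of PSMD1 is not settled by these probes. PSMD7, the lid subunit that pairs with the deubiquitinase PSMD14, has 1 probe and gave −0.88, −0.78, −0.53 and −0.76. It fell after both miRNAs (adjusted p = 0.00443 and 0.00449). PSMD9, a chaperone of base assembly, was the highest at 0.75, 0.67, 0.78 and 0.55, and rose after miR-489 (0.76 ± 0.079, adjusted p = 0.00174) and miR-504 (0.61 ± 0.079, adjusted p = 0.00388). A second PSMD9 probe was dim, at Cy3 intensities of 30 to 74, and gave 0.24, −0.44, 0.42 and 0.29, up to 1.11 away from the brighter probe on an array. PSMD8 of the lid and PSMD5, another base chaperone, were also called higher after both miRNAs. A dim second PSMD5 probe, at Cy3 intensities of 59 to 91, gave −0.12, 0.61, 0.21 and 0.29 and was not called after miR-489 (adjusted p = 0.761). PSMD4, a ubiquitin receptor, was not called by its brighter probe (0.09, −0.11, 0.06 and 0.05), whereas its second probe gave 0.61, 0.32, 0.62 and 0.55 and was called higher after both miRNAs (adjusted p = 0.00404 and 0.0134).

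The activators had the highest medians of the PSMA to PSME groups, 0.61, 0.54, 0.48 and 0.51 on the 4 arrays, and 0.39, 0.36, 0.28 and 0.32 with loess. PSME3, the nuclear activator subunit PA28 gamma, gave 1.18, 1.22, 1.10 and 1.14 by its brightest probe, and rose after miR-489 (1.14 ± 0.079 SE, limma adjusted p = 0.000939) and miR-504 (1.18 ± 0.079, adjusted p = 0.00134). Its other probes gave lower means over the arrays, 0.78 and 0.43, all ratios above 0, so the size but not the direction differed between probes. PSME4, the activator PA200, gave 0.75, 0.39, 0.56 and 0.46. PSME1 gave 0.47, 0.70, 0.39 and 0.55 by its brighter probe and −0.22, −0.05, −0.14 and −0.18 by the dimmer, on opposite sides of 0. PSME2, its partner in the interferon-inducible activator, was the lowest of the group, at −0.07, 0.08, −0.02 and 0.03. The inhibitor PSMF1 gave −0.37, −0.24, −0.30 and −0.31 and fell after both miRNAs (adjusted p = 0.0163 and 0.0337).

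The core (16 PSMA and PSMB genes) had a lower median than the regulatory particle (20 PSMC and PSMD genes) on every array, at log2 differences of −0.55 and −0.09 in FaDu after miR-489 and miR-504 and −0.40 and −0.17 in HSC3. Every alternative tried used the same arrays without a dye swap, and so keeps any dye effect of the probes. The difference between core and regulatory particle stayed negative under each of them. It ran from −0.59 to −0.51 on the FaDu miR-489 array and from −0.19 to −0.06 on the FaDu miR-504 array. On the HSC3 arrays it ran from −0.49 to −0.37 after miR-489 and from −0.31 to −0.17 after miR-504. Equal scaling to the total signal lowered the median of all genes by 0.21, 0.17, 0.17 and 0.19 on the 4 arrays, and the members moved with it. A shift of a whole array cancels between core and regulatory particle, so this scaling moved the family median and could not move their difference. The low medians were those of the alpha ring (−0.32, −0.34, −0.22 and −0.26 over the 7 PSMA genes), whereas the PSMB medians of 0.22, 0.07, 0.28 and 0.14 lay near those of the PSMC (0.30, 0.07, 0.27 and 0.19) and PSMD genes (0.24, −0.04, 0.30 and 0.16). A constant dye effect cancels in the log2 ratio after miR-489 minus that after miR-504. The median of this value was −0.005 for the core and 0.18 for the regulatory particle in FaDu. In HSC3 the medians were 0.027 and 0.039. The genes of a part are not replicates, and the difference between core and regulatory particle was not tested.

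**Figure D2:**
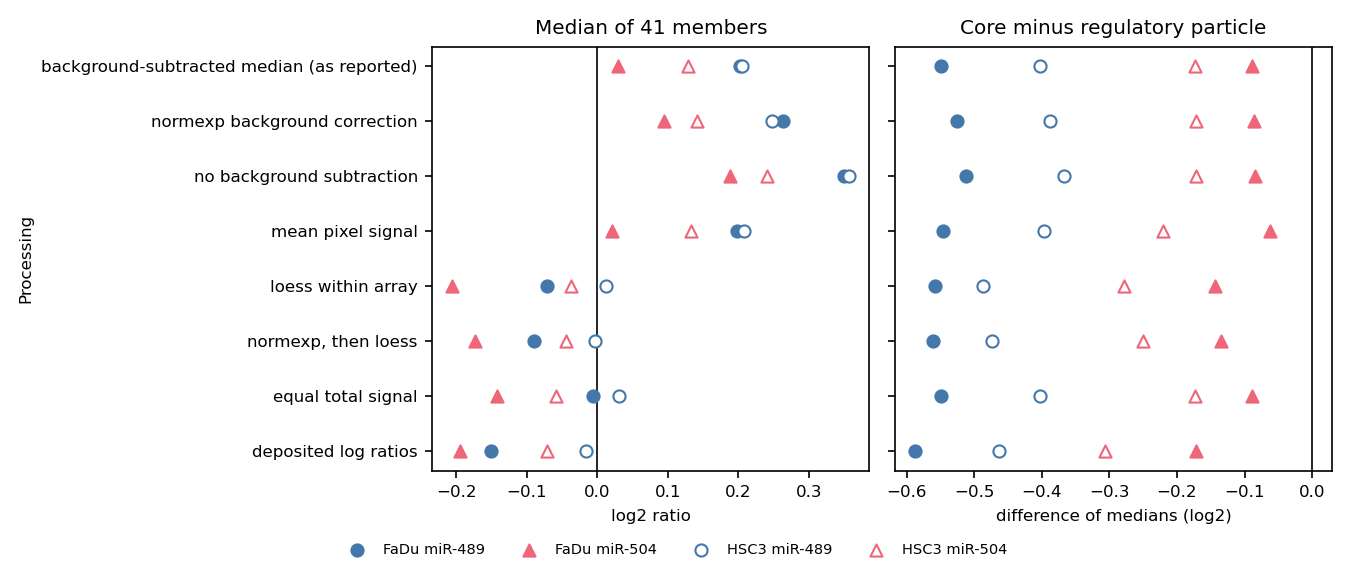
Left, median log2 ratio of the 41 measured subunit genes on each array; right, median of the core minus that of the regulatory particle on the log2 scale; each row is 1 way of processing the same spots (circles miR-489, triangles miR-504; filled FaDu, open HSC3). The family median runs from −0.21 to 0.36 and crosses 0 with the scaling. The difference between core and regulatory particle stays below 0 in every row, and every row keeps any dye effect of the probes. A shift of a whole array, as with equal total signal, cancels in this difference and could not move it.

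The difference between the miRNAs is free of a constant dye effect, because both miRNAs were labelled with Cy5. No member was called either way by limma (0 lower, 0 higher of 41, where 0.782% of all genes were lower and 0.305% higher), and 7 of 41 members had an unadjusted p under 0.05, near the 18.5% of all probes tested. With the cell line as a block, 0 members were lower and 1 was higher after miR-489 than after miR-504 (all genes 1.89% and 0.826%), and again 7 had an unadjusted p under 0.05, where 20.3% of all probes did. The gene called with the block was PSMA1. Its Cy3 intensities were 7754 and 6791 on the FaDu arrays of miR-489 and miR-504 and 10342 and 12065 on the HSC3 arrays. Its Cy5 intensities were 9277 and 4045 in FaDu and 15167 and 8637 in HSC3. The miR-504 transfectants were thus the low samples in both lines, and the log2 ratios of −0.32 and −0.03 after miR-489 did not overlap those of −1.40 and −0.93 after miR-504. PSMA1 was 1.98-fold higher after miR-489 than after miR-504 (log2 difference 0.99 ± 0.20 SE), with an adjusted p of 0.105 without and 0.0303 with the line as a block. Over the scalings the difference ran from 0.90 to 1.003, and the adjusted p from 0.0288 to 0.109 without the block and from 7.37e-05 to 0.0629 with it.

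PSMD14, the deubiquitinase of the lid that cuts the ubiquitin chain from the substrate, came next. Its log2 ratios were −0.21 in FaDu and 0.00 in HSC3 after miR-489, and −0.99 and −0.61 after miR-504. The difference was 0.70 ± 0.17 SE, 1.63-fold, and did not pass (limma adjusted p = 0.139, and 0.0617 with the block; over the scalings 0.0512 to 0.147 without and 0.0011 to 0.108 with it). Against control alone, PSMA1 and PSMD14 fell after miR-504 (−1.16 ± 0.142 SE, limma adjusted p = 0.00331, and −0.80 ± 0.122, adjusted p = 0.00572) and were not called after miR-489 (adjusted p = 0.328 and 0.51). In the opposite direction stood PSMB8, the interferon-inducible form of the chymotrypsin-like subunit, with −0.59 in FaDu and −0.35 in HSC3 after miR-489 and 0.25 and 0.06 after miR-504. Its difference of −0.62 ± 0.14 SE did not pass either (adjusted p = 0.124, and 0.110 with the block), although over the scalings the adjusted p ran from 0.0403 to 0.134 without the block and from 0.00902 to 0.157 with it. The other members with an unadjusted p under 0.05 were PSMD13, PSMC3 and PSMD12, higher after miR-489 in both lines, and PSMD5, lower in both. With the block their adjusted p over the scalings ran from 0.0197 to 0.213 (PSMD13), 0.0366 to 0.237 (PSMC3), 0.0705 to 0.294 (PSMD12) and 0.0453 to 0.175 (PSMD5), under 0.05 only without background subtraction, and for PSMD12 under no scaling. A p that misses the threshold does not show that the miRNAs act alike on the other members.

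**Figure D3:**
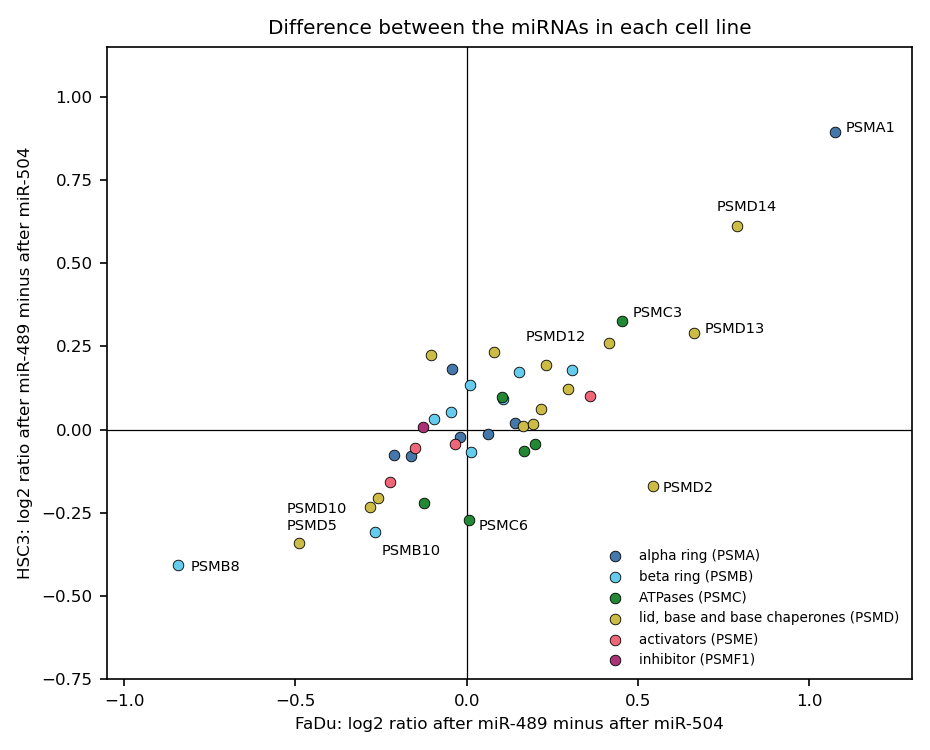
Log2 ratio after miR-489 minus log2 ratio after miR-504, in FaDu on the x axis and in HSC3 on the y axis, 1 point per measured subunit gene, coloured by its part of the complex. PSMA1 (1.08 in FaDu and 0.90 in HSC3) and PSMD14 (0.79 and 0.61) lie at the upper right, PSMB8 (−0.84 and −0.41) at the lower left, and PSMD2 (0.54 and −0.17) has opposite signs in the lines.

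The subunits known to be induced by interferon gamma were read side by side after their values had been seen, so their shared sign describes 4 chosen genes and supports nothing more. The log2 difference, miR-489 minus miR-504, was −0.84 in FaDu and −0.41 in HSC3 for PSMB8, and −0.27 and −0.31 for PSMB10, the inducible form of the trypsin-like subunit. It was −0.15 and −0.06 for PSME2, and −0.22 and −0.16 for PSME1 by its brighter probe. The dimmer PSME1 probe differed by −0.17 and 0.05, so it did not lie below 0 in both lines. PSMB7, the subunit whose place PSMB10 takes, differed by 0.10 and 0.09, and PSMB5, whose place PSMB8 takes, by 0.31 and 0.18. None of the 4 inducible genes passed the test of the difference (limma adjusted p from 0.124 to 0.674).

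Control levels of the subunit genes differed between the lines in both directions. In the Cy3 channel limma called 12 members higher in FaDu and 5 higher in HSC3 of 41, where 28.3% of all genes were higher in FaDu and 20.7% in HSC3. The median difference, HSC3 minus FaDu, was −0.20 over the members and −0.08 over all genes. These p-values measure the spread between arrays only. Without the FaDu miR-489 array 5 members were called higher in FaDu and 3 in HSC3. PSMB10 was the member most in favour of FaDu, with Cy3 intensities of 5844 and 4927 in FaDu and 1954 and 2067 in HSC3, a 3.11-fold difference (log2 −1.64 ± 0.16 SE, adjusted p = 0.000401). PSMC1, an ATPase, followed with 46257 and 41676 against 19835 and 21969 (2.45-fold, adjusted p = 0.000694). PSMA4, PSMD7 and PSMA5 were 1.93-fold, 1.73-fold and 1.73-fold higher in FaDu (adjusted p = 0.0024, 0.00451 and 0.00596). In each of these genes both FaDu arrays lay above both HSC3 arrays. This adds nothing to the calls, since the genes were chosen as the members most in favour of FaDu.

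PSMF1, the inhibitor, stood at the other end by its brighter probe, with Cy3 intensities of 603 and 585 in FaDu and 1645 and 2005 in HSC3. It was 2.63-fold higher in HSC3 (log2 1.39 ± 0.14 SE, limma adjusted p = 0.00045). A second PSMF1 probe, with 359 and 380 against 615 and 610, gave a smaller difference of 1.42-fold (log2 0.51, adjusted p = 0.0371). PSMD10, the base chaperone also called gankyrin, was 1.89-fold higher in HSC3 (1251 and 1112 against 2397 and 2812, adjusted p = 0.00257). PSMD13 of the lid, the base scaffold PSMD2 and the activator PSME4 were 1.66-fold, 1.58-fold and 1.52-fold higher (adjusted p = 0.00753, 0.0162 and 0.0122). The inducible catalytic subunits went opposite ways, since PSMB8 was 1.56-fold higher in HSC3, just short of the threshold (0.64 ± 0.23 SE, adjusted p = 0.0526). By part, 4 of 6 ATPases and 4 of 16 core genes were called higher in FaDu, and 0 of either in HSC3. Of all genes 28.3% were called higher in FaDu and 20.7% in HSC3, and nothing particular to a part is read from these counts. The 14 PSMD genes split into 3 and 3. The Cy5 channel held the miRNA transfectants, not the controls. In that channel, with the miRNA as a block, 10 members were called higher in FaDu and 8 in HSC3, and fewer each way without the block. The share of all genes was not computed for this fit, so nothing particular to the members is read from these counts. With the block, limma called the core genes PSMA1, PSMB7 and PSMB8 higher in HSC3 (adjusted p = 0.0246, 0.044 and 0.042). It called the core genes PSMA4, PSMA5, PSMB3 and PSMB10 higher in FaDu, and of the ATPases only PSMC1 and PSMC5, also in FaDu. PSMB10 and PSMF1 again stood at the ends, with −1.80 and 1.37.

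**Figure D4:**
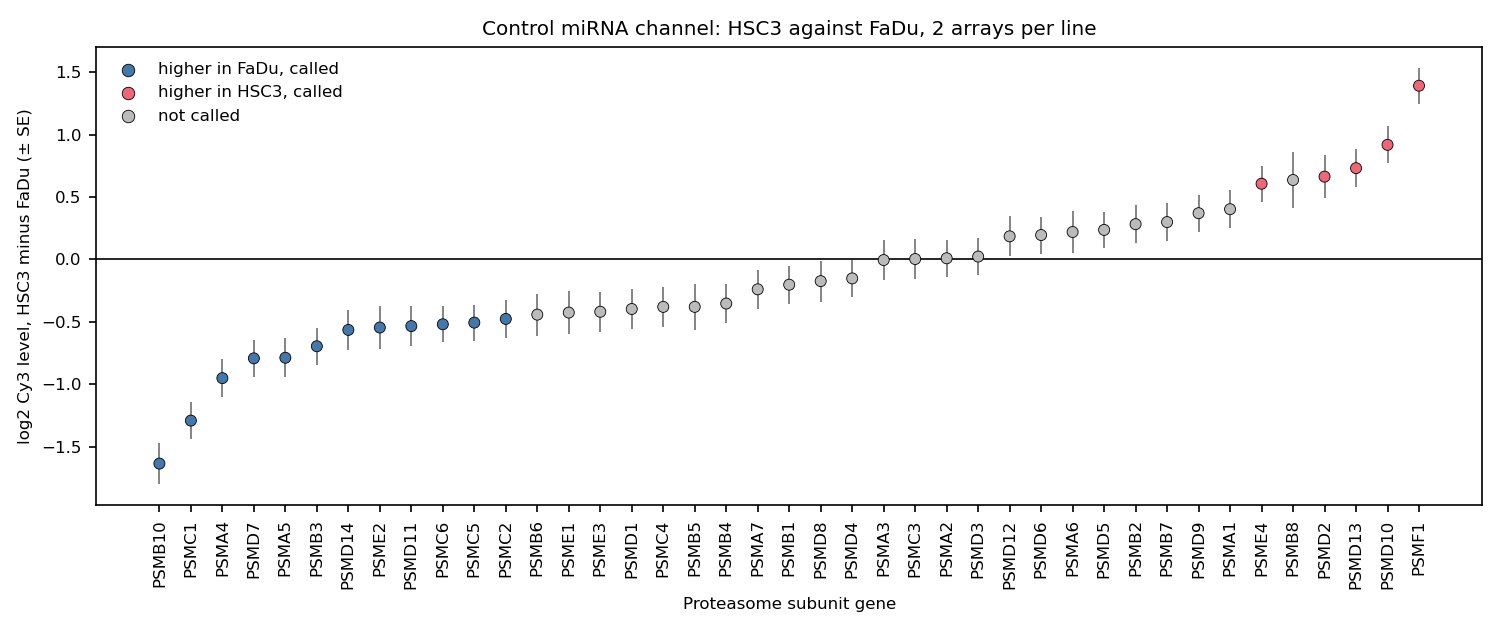
Log2 Cy3 level of the control miRNA transfectants, HSC3 minus FaDu, for the 41 measured subunit genes in order of the difference, with the SE of limma over 2 arrays per line. The 12 blue genes, from PSMB10 (−1.64) to PSMC2 (−0.48), were called higher in FaDu, and the 5 red genes, up to PSMF1 (1.39), were called higher in HSC3.

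Of 36 genes that act with the proteasome (assembly, deubiquitination, shuttling, ubiquitin supply and the control of subunit transcription), 35 were found and 33 had Cy3 signals well above background on all arrays. After miR-489 limma called 12 of 33 lower and 9 higher, after miR-504 13 lower and 7 higher, and 0 in the difference between the miRNAs, with or without the line as a block. Between the lines 10 were higher in FaDu and 7 in HSC3. The shares of all genes stand above, at 27.8% and 30.1% (miR-489), 24.3% and 26.7% (miR-504), and 28.3% and 20.7% (lines), and nothing particular to the list is read from these counts. UBB, which encodes ubiquitin, was at least 2-fold higher on all 4 arrays (1.29, 1.19, 1.29 and 1.27). USP14, a deubiquitinase that binds the regulatory particle, gave 0.97, 0.71, 1.01 and 0.82. NFE2L1 itself gave −0.72, −1.01, −0.86 and −0.90 and fell after both miRNAs (limma adjusted p = 0.00181 and 0.00175). POMP, the chaperone that completes the core, gave −0.54, −1.38, −0.55 and −0.78, lowest after miR-504 in each line (adjusted p of the difference 0.277), and SHFM1, a small lid subunit, −1.01, −0.86, −0.80 and −0.73. UBQLN2, a shuttle for ubiquitin chains, had a log2 ratio of −2.05 on the FaDu miR-489 array. Its Cy5 intensity there, 22, was not well above background and its Cy3 intensity was 61, so the fold is not well determined. On the FaDu miR-504 array Cy3 was 8 and not well above background, and on the HSC3 arrays, at Cy3 intensities of 297 and 358, the log2 ratios were 0.18 and 0.41, above 0. The core assembly chaperones PSMG1, PSMG2 and PSMG3 were on the array as DSCR2, TNFSF5IP1 and MGC10911. TNFSF5IP1 gave 0.51, 0.12, 0.51 and −0.03, higher after miR-489 in both lines (adjusted p of the difference 0.140).

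Promoters, from 250 bases before to 50 after each start in RefSeq (GRCh38.p14), were given for 37 of the 42 members. The motif TGACNNNGC, the core of the antioxidant response element to which NFE2L1 and related factors bind, was searched on both strands. It was present for 12 of the 37 members (32.4%) and for 16.1% of all 27305 genes with a promoter sequence. The mean log2 ratio over the 4 arrays had a median of 0.42 over the 12 members with the motif and 0.04 over the 24 measured members without it. Members with the motif included PSMB3, the highest beta subunit, and the activators PSME1, PSME2 and PSME4, but also PSMA4, which fell. Stretches before the start of 4 such genes are shown so that their motifs, in capitals, can be set beside these values. The stretch of PSMC5 carries the motif on the reverse strand, and a match of letters is a description, not a binding site.
PSMB3 (chr17:38752612-38752671, plus strand): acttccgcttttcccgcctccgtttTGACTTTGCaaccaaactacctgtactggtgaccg
PSMA4 (chr15:78540635-78540694, plus strand): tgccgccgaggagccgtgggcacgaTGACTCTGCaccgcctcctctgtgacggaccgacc
PSMC5 (chr17:63827639-63827698, plus strand): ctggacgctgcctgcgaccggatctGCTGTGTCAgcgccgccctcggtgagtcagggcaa
PSMD5 (chr9:120843022-120843081, minus strand): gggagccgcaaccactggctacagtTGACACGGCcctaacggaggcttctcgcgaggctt
In these sequences the motif starts 104 (PSMB3), 126 (PSMA4), 57 (PSMC5) and 134 (PSMD5) bases before the start of the gene.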

How the data were processed

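The 4 arrays of FaDu or HSC3 transfectants were grouped by the cell line and miRNA in the labels, 1 array per group. The authors deposited scanner output of Feature Extraction 9.5.3.1: spot and local background intensity (median and mean pixels, not normalised), a log10 ratio of Cy5 over Cy3 after dye normalisation, and 0 or 1 marks (other values) for signal well above background, outliers and saturation. The deposited value file held the same log10 ratios (largest difference 0). The study's methods describe globally normalised log2 ratios of background-subtracted medians, as used here, but name a ScanArray scanner and DNASIS software for the analysis.

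Background-subtracted medians were turned to log2 ratios and centred on the median of spots well above background in both channels, which removed 0.58, 0.65, 0.58 and 0.45 (FaDu after miR-489 and miR-504, then HSC3). Outlier spots (118 to 137 per array) were left out and 0 spots were saturated. Repeated spots varied by an SD of 0.0977 (log2, mean of the arrays). The number of arrays limits the precision. The probe with the highest mean log2 Cy3 stood for a gene. A gene was counted lower only where Cy3, and higher only where Cy5, was well above background. limma was fitted to the 20914 probes whose Cy3 passed on every array (2 residual degrees of freedom, Benjamini-Hochberg adjustment). Shares over all genes are over genes by brightest probe. Its step was tested on simulated data. The cell line pairs the arrays of the miRNAs, and the deviations of the FaDu arrays correlated with r = 0.14 across probes. The accession of 59 of 60 member probes was in RefSeq, all 59 with the same symbol.

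Members and gene lists were chosen with earlier results of these data known. Genes named were members called in the difference between the miRNAs, members changed 2-fold on an array, the lowest and highest overall and per part, the 5 most different each way between the lines, members with probes over 1 apart (log2) or not well above background, and list genes called in the difference between the miRNAs or changed 2-fold. Others (PSMB5 to PSMB8, PSMB10, PSMC3, PSMD4, PSMD5, PSMD8, PSMD12, PSMD13, PSME1, PSME2 and TNFSF5IP1) were chosen after their values were seen or for their role. Alternatives were other background corrections, normalisations, probe and dim-spot filters, a 1.5-fold threshold, each array left out, and a block for the line. Software was limma 3.58.1 and data.table (version 1.17.8) in R 4.3.3, and matplotlib 3.10.9, numpy 2.4.6 and pandas 2.3.3 in Python 3.11.15.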

Additional observations from a re-analysis of the deposited data

Results flagged for a closer look

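PSMD11 and PSMD13, both lid subunits, had log2 ratios of opposite sign in the lines after miR-504: −0.17 in FaDu and 0.13 in HSC3 for PSMD11, and −0.19 and 0.14 for PSMD13. PSMD2, a base scaffold, was higher after miR-489 than after miR-504 in FaDu (0.54) and lower in HSC3 (−0.17). With 1 array for each line and miRNA these differences between the lines were not tested.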

How the results depend on the processing

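Over all alternatives 176 recomputed values stayed within the replicate spread or within 1.5 times the count, 102 moved and 2 reversed; the cause was not tested. The family median (given for FaDu after miR-489, FaDu after miR-504, then HSC3 in the same way) was 0.35, 0.19, 0.36 and 0.24 without background subtraction, −0.071, −0.21, 0.013 and −0.037 with loess, −0.090, −0.17, −0.0034 and −0.045 with normexp and loess, and −0.0061, −0.14, 0.031 and −0.059 with equal total signal. In the deposited log10 ratios, and in the deposited table that holds the same ratios, it was −0.15 (reversed), −0.19, −0.016 and −0.071. The core minus the regulatory particle moved to −0.28 (loess) and −0.31 (deposited ratios) in HSC3 after miR-504, and to −0.19 without a filter on dim probes in FaDu after miR-504, always below 0.

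Members at least 2-fold lower in FaDu after miR-489 (1) became 0 with normexp, without background subtraction or with the mean of a gene's probes, 3 with loess, normexp and loess or the deposited ratios, 2 with equal total signal or no filter, and 4 at 1.5-fold. In FaDu after miR-504 (1) they became 2 with mean pixel signal, loess, normexp and loess, equal total signal or no filter, 3 with the deposited ratios and 6 at 1.5-fold. In HSC3 after miR-489 (0) they became 1 with loess, the deposited ratios or no filter, and 2 with normexp and loess or at 1.5-fold. In HSC3 after miR-504 (0) they became 1 with loess, normexp and loess, equal total signal or no filter, 2 with the deposited ratios and 5 at 1.5-fold.

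Members at least 2-fold higher became 2 without background subtraction in FaDu after either miRNA and in HSC3 after miR-504 (1 each). They became 0 in these 3 conditions with the mean of a gene's probes, 0 in FaDu after miR-489 and in HSC3 after miR-504 with normexp and loess or equal total signal, and 5, 6 and 4 at 1.5-fold. In HSC3 after miR-489 (2) they became 0 with loess, normexp and loess or equal total signal, and 1 with the deposited ratios or the mean of the probes.

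The members called lower after miR-489 (10) were 5 without background subtraction, 17 with normexp and loess, 2 with no filter on dim probes, and 4 to 8 on leaving out an array. Those called higher (20) were 9 with loess, normexp and loess or the deposited ratios, 8 with equal total signal, 4 with no filter, and 8 to 14 on leaving out an array. After miR-504 the members called lower (11) were 7 without background subtraction, 1 with no filter and 2 to 10 on leaving out an array, and those called higher (12) were 21, 3 and 3 to 12. In the difference between the miRNAs, PSMA1 was called higher (1 instead of 0) with normexp, without background subtraction, with normexp and loess, and with the cell line as a replicate block, and PSMB8 was called lower (1 instead of 0) with normexp and loess; leaving out any array gave 0 either way. With the scaling used in the report the block changed no other call of a member; under other scalings it also brought PSMD14 (adjusted p = 0.00763) and PSMB8 (0.0312) under 0.05 with normexp, and PSMD14 with normexp and loess (0.0152), and without background subtraction PSMD14, PSMB8, PSMC3, PSMD13 and PSMD5 (0.0011 to 0.0453).

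Members called higher in HSC3 than in FaDu (5) were 9 with quantile normalisation, 8 with normexp, without background subtraction or in Cy5 with the miRNA as a block, 3 in Cy5 without it, and 3 to 6 on leaving out an array. Those higher in FaDu (12) were 4 in Cy5 and 5 to 14 on leaving out an array. Depth here is signal over background, which limited the values of PSMA8 alone among the members.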
